A study of Mus musculus with 132 samples.

Results

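ETS transcription factors are recognised by a winged helix-turn-helix domain that binds a GGAA core in DNA. In the early embryo they act in sequence in the cells that form blood and vessels: Etv2 is switched on for a short time in the mesoderm that gives rise to both lineages, Fli1 and Erg then act in endothelium and in blood stem and progenitor cells together with Tal1, Lyl1, Lmo2, Gata2 and Runx1, and Spi1 (PU.1) drives myeloid and lymphoid fate. Ets1 and Ets2 are signal-responsive activators found in many cell types, Elk3 (also called Net) is a regulator prominent in endothelium, Etv6 (Tel) is a repressor needed by blood stem cells, Elf1 is an activator in blood and endothelial cells, and Gabpa is a broadly used factor at promoters of housekeeping genes. The 10 genes Etv2, Fli1, Erg, Ets1, Ets2, Etv6, Spi1, Elf1, Elk3 and Gabpa were taken by name from the 25146 entries of the gene count table, and each had 1 entry.

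RNA without a poly(A) tail, which is rich in nascent transcripts, was sequenced from mouse E14 embryonic stem cells (mESCs) and their derivatives in 23 libraries, and reads over exons and introns were counted together. Undifferentiated wild-type mESCs (day 0) gave 2 libraries, labelled as technical repeats of E14 and not by the clones of the later stages. A figure legend of the paper counts 2 independent experiments for this stage. Flk1+ mesoderm sorted on day 4 gave 3 libraries per genotype. CD41+CD45- hematopoietic progenitor cells (HPCs) from day 7 gave 4 wild-type libraries, 3 of P1-CTCF-KO and 5 of P2-CTCF-KO. After CRISPR-Cas9 editing, P1-CTCF-KO cells lack the CTCF binding site beside the distal (P1) promoter of Runx1, and P2-CTCF-KO cells lack that beside the proximal (P2) promoter. Each genotype had 3 clones, wild type included. Embryoid bodies were grown with BMP4 and then bFGF and Activin A, and sorted Flk1+ cells were replated with SCF and VEGF to give HPCs. Some HPC clones were sequenced in a further library (wild-type B9.3, P2-CTCF-KO D10.1 and D2.1). No ETS gene was edited, and the deletions removed no coding sequence, so gene counts cannot check the genotype. Runx1 itself was counted at 4.11, 12.6 and 15.9 CPM in the wild-type mesoderm libraries, at 3.64 to 11.8 CPM in P1-CTCF-KO and at 2.05 to 7.86 CPM in P2-CTCF-KO mesoderm.

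Between 7805102 and 24406998 reads were counted per library, but 68.1% to 91% of them fell on ribosomal RNA and other entries that occupy several places in the genome. The remaining genes held 4858658 to 7748566 reads in mESC libraries, 1897917 to 2288976 in mesoderm and 878966 to 1584401 in HPCs. Ribosomal RNA was depleted with an extra kit in the mESC samples and this is not described for the sorted cells, so stage and preparation cannot be told apart in the mesoderm against mESC comparison. Sorted wild-type cells carried the markers of their stage by edgeR. On the way to mesoderm 6 of 6 pluripotency genes fell, where 13.7% of all tested genes did. DESeq2 called 4 of these 6 lower. In that step 7 of 7 tested mesoderm genes rose (10.7% of all genes). In HPCs 8 of 8 erythroid and 7 of 8 megakaryocyte or CD41+ progenitor genes rose (10.8% of all genes). Kdr and Itga2b, which encode the sorting markers Flk1 and CD41, are in these lists, and their rise was set by the sort. Of 6 cardiac genes 3 were tested, and 2 of them rose in mesoderm. Levels are given as CPM, the reads of a gene scaled to the library total, after TMM scaling over the 23 libraries. Wild-type mesoderm libraries differed in endothelial content: the summed level of 21 endothelial genes known to be bound by ETS factors was 196 CPM in clone B9.3 against 36.8 CPM in C6.1 and 42.1 CPM in C8.1. Among HPC libraries, P2-CTCF-KO library D2.1 stood apart in Cdh5 (VE-cadherin, the endothelial junction protein). It had 17.5 CPM where the 11 other HPC libraries had 0.124 to 3.41 CPM. By the summed level of the 21 endothelial genes it did not stand apart, at 142 CPM against 151 CPM in P2-CTCF-KO HPC library D10.1. Values without both are given beside results that rest on them.

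Fli1 was listed at 0.0178 and 0.0106 CPM in mESCs, reached 32.5 CPM in mesoderm and was the most abundant member in HPCs. Per kb of counted span, which allows comparison between genes, wild-type HPC means ran from Fli1 at 0.452 CPM per kb through Ets2 at 0.214, Elf1 at 0.161, Etv6 at 0.142, Gabpa at 0.131, Spi1 at 0.0323, Elk3 at 0.032 and Ets1 at 0.0298 to Erg at 0.00312, with Etv2 at 0. The gaps from Fli1 to Ets2, from Gabpa to Spi1 and from Ets1 to Erg were larger than the SD of either neighbour (n = 4), and the other neighbours with reads lay within the larger SD. In wild-type mesoderm the same scale gave 0.214 for Ets2, 0.137 for Fli1, 0.128 for Gabpa, 0.126 for Etv2, 0.117 for Elk3, 0.0821 for Etv6 and 0.0736 for Ets1, and each of these 7 means differed from its neighbours by less than the larger SD of the pair (n = 3). Elf1 at 0.0201, Erg at 0.0156 and Spi1 at 0.00212 CPM per kb came last. In mESCs the order was led by Gabpa at 0.21 ± 0.0187 CPM per kb (SD over 2 libraries labelled as technical repeats), then Ets2 at 0.0586 and Etv6 at 0.027.

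**Figure D1:**
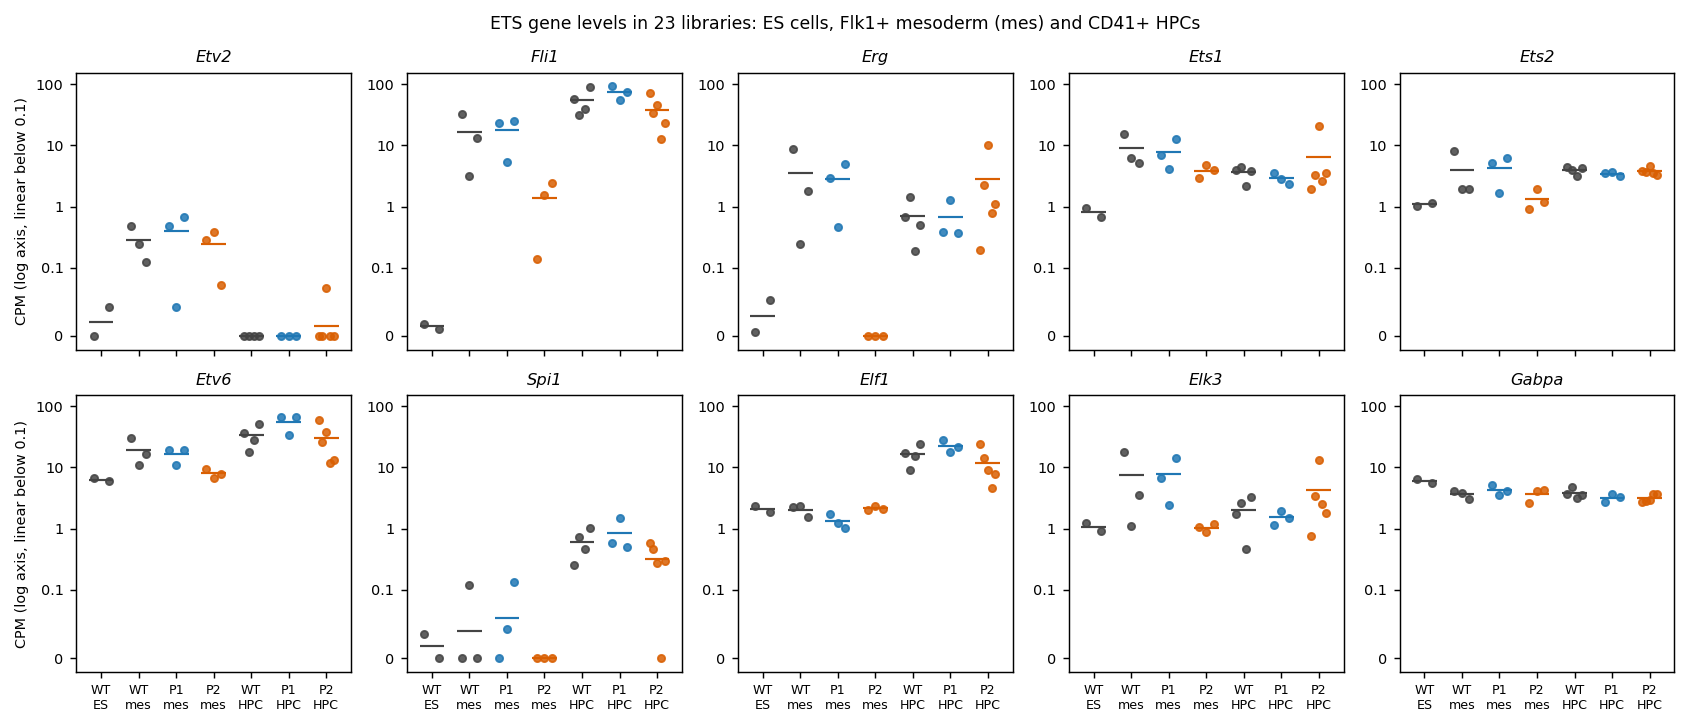
CPM of each ETS gene in 23 libraries (y axis, logarithmic above 0.1 and linear below), by genotype (WT, P1 for P1-CTCF-KO, P2 for P2-CTCF-KO) and stage (ES for mESCs, mes for Flk1+ mesoderm, HPC for CD41+ HPCs). Points are libraries and lines are group means. Erg was at 0 in the 3 P2-CTCF-KO mesoderm libraries, and Gabpa stayed between 2.61 and 6.39 CPM in the 23 libraries.

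Open chromatin around the ETS genes was available as ATAC-seq peak lists of wild-type Flk1+ mesoderm (76766 peaks) and CD41+ HPCs (29037 peaks). The methods describe the ATAC-seq cells as an E14 line with a Venus reporter at Runx1 and an enhancer transgene. Each list was called on merged libraries (4 of mesoderm, 2 of HPCs), with no peak heights, so a peak missing from the shorter HPC list and a difference in depth cannot be told apart. Within the spans and 10 kb on each side there were 67 mesoderm and 37 HPC peaks. Of the mesoderm peaks 23 (34.3%) overlapped an HPC peak, against 25.8% in the whole list, and of the HPC peaks 24 (64.9%) overlapped a mesoderm peak, against 69.4%. A mesoderm peak lay within 500 bp of the start for 7 of 10 members (Ets1, Ets2, Etv6, Spi1, Elf1, Elk3 and Gabpa), where 51.8% of 24961 genes with 1 locus had one, and an HPC peak for 5 (Ets1, Ets2, Etv6, Spi1 and Gabpa), where 34.7% did. Elf1 and Elk3 had one in the mesoderm list and not in the HPC list (2 of 10, against 18.1% of genes), and no member had the reverse (0.925%). Any peak within the window was found for 10 of 10 members in each list, against 82.7% of genes in mesoderm and 59.7% in HPCs. The window grows with the span, which reaches 234449 bp for Etv6, and these shares were not matched for span. Fli1, Erg and Etv2 had no peak within 500 bp of the start of their counted span. CTCF peaks of 416B cells, a mouse myeloid progenitor line, lay within 5 kb of the start of Etv2, Ets2 and Spi1, 3 of 10 members where 32.2% of genes had one.

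**Figure D2:**
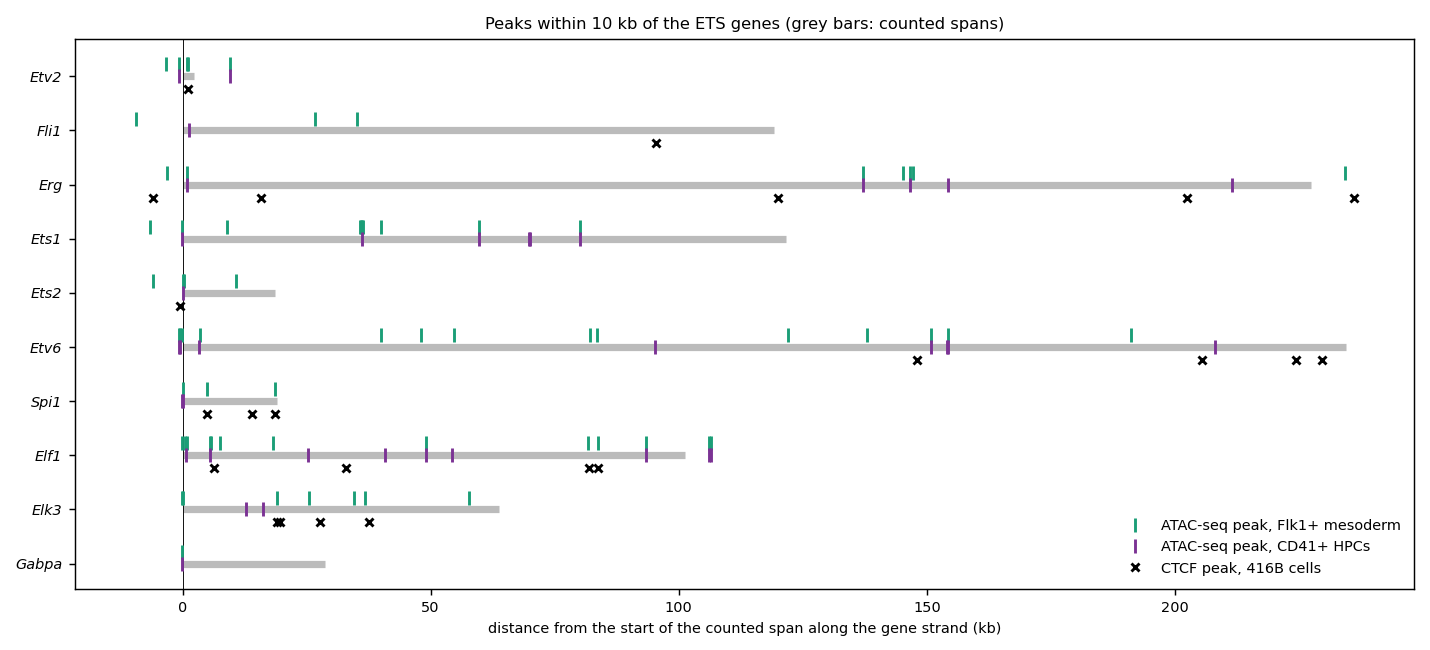
Centres of ATAC-seq peaks in wild-type mesoderm (green) and HPCs (purple) and of CTCF peaks in 416B cells (crosses) along each ETS gene, by distance from the start of the counted span in kb (x axis, positive along the gene). Grey bars are the spans. Elk3 has a promoter peak in the mesoderm list only, and Gabpa has 1 peak per list, at its start.

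The sequences of 5 peaks are shown, those near known enhancers of Fli1, Spi1 and Erg and those just upstream of Etv2 and at the promoter of Elk3. Capitals mark the ETS core GGAA or its complement TTCC, and the GATA motif AGATAA or its complement TTATCT. Each is printed along the strand of its gene, from the mm9 genome.
Fli1, 15 kb upstream (chr9:32364079-32364169, minus strand, intergenic, mesoderm list, also overlapped by an HPC peak): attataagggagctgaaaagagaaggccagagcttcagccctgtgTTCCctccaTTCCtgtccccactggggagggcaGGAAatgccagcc
Spi1, 14 kb upstream (chr2:90923259-90923367, plus strand, HPC list, no mesoderm peak): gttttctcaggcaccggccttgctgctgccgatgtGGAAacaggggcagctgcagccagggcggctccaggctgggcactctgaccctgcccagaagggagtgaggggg
Erg, 85 kb downstream of an internal start (chr16:95661475-95661762, minus strand, intronic, both lists): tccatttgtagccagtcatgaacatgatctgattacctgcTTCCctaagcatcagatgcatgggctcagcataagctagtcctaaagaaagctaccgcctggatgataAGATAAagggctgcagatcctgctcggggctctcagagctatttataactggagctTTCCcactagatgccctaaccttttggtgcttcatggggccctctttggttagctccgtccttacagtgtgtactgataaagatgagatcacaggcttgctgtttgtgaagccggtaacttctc
Etv2, upstream (chr7:31421512-31421694, minus strand, both lists): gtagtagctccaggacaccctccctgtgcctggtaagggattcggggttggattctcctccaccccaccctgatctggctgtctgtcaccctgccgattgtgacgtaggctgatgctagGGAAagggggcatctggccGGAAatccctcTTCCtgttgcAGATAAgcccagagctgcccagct
Elk3, promoter (chr10:92773715-92773855, minus strand, exonic, mesoderm list only): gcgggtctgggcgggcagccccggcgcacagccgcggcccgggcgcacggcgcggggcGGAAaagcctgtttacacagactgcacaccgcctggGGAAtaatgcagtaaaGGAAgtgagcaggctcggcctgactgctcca

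The Fli1 peak lay 15.1 kb upstream of the span start and held 3 ETS cores, on both strands, and 66.3% of the windows of 91 bp centred on mesoderm peaks held at least 1. Its only HPC peak inside the span was 1.21 kb from the start, and no peak of either list lay within 2 kb of a point 12 kb downstream, where another Fli1 enhancer is known. The Spi1 peak, 13.5 kb upstream, was in the HPC list alone. It held 1 ETS core, and 76.3% of HPC windows of 109 bp held at least 1. Erg had no peak 85 kb from the start of its counted span, but the printed peak lies 84.6 kb from a protein-coding start at 95746210 of chromosome 16 in GENCODE vM1, a start chosen after the peaks were seen. It held 2 ETS cores (96.2% of windows of 288 bp had at least 1) and 1 AGATAA (20.7%). The Etv2 peak was centred 0.73 kb upstream and present in both lists, although Etv2 reads were nearly absent from HPCs. It held 3 ETS cores (88.3% of windows of 183 bp had at least 1) and 1 AGATAA (15.3% had at least 1). Elk3 had 3 cores in its promoter peak (81.4% of windows of 141 bp had at least 1). Of these, 1 was the longer AGGAAGT (6.47% had at least 1). Neither GCGGAAGT nor the RUNX motif TGTGGT was found on either strand of the 5 peaks. AGGAAGT and GCGGAAGT contain the core, so their matches overlap it.

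The step from mESCs to Flk1+ mesoderm asked which ETS genes were switched on with mesoderm. Fli1, Erg, Ets1, Ets2, Etv6 and Elk3 rose in wild-type cells, and no member fell. Thus 6 of the 9 members that passed the filter on low counts were called higher (edgeR quasi-likelihood test, Benjamini-Hochberg adjusted p under 0.05 and more than 1 log2 unit), where 10.7% of 12899 tested genes were called higher. DESeq2 called the same 6, where it called 11.7% of genes higher. Fli1 (3 and 1 reads in the mESC libraries) and Erg (1 and 5) passed the filter only through later stages, where they were high. Their calls are therefore no independent support for a rise. No member was called lower by either tool, where edgeR called 13.7% of genes lower, and Gabpa alone was lower at an unadjusted p under 0.05, where 22.8% of genes were. The median log2 difference of the 9 members was 1.99, and that of all tested genes was -0.18. In these bulk samples, more cells that express a gene and more RNA per cell cannot be told apart.

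Fli1 (mm9, chr9:32229788-32349037, minus strand) had 3 and 1 reads in the mESC libraries and 32.5, 3.15 and 13.4 CPM in the mesoderm of B9.3, C6.1 and C8.1 cells. The groups did not overlap, but clone C6.1 lay far below clone B9.3. The log2 difference was 9.89 ± 1.15 (SE, adjusted p = 0.00021 by edgeR).

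Erg, on the minus strand of chr16:95580775-95808200, had 0.00593 and 0.053 CPM in mESCs and 8.59, 0.242 and 1.79 CPM in B9.3, C6.1 and C8.1. Its difference of 7.16 ± 1.28 on the log2 scale was called (adjusted p = 0.0022 by edgeR), and the order of the 3 clones was the same as for Fli1. Ets1, the neighbour of Fli1 on chromosome 9 (chr9:32443825-32565405, plus strand), went from 0.96 and 0.668 CPM to 15.4, 6.18 and 5.23 CPM, a log2 difference of 3.54 ± 0.49 (adjusted p = 0.00054 by edgeR). Ets2 (chr16:95924013-95942656, plus strand) had 1.04 and 1.15 CPM in mESCs and 8.05, 1.94 and 1.97 CPM in mesoderm, and Elk3 (chr10:92710160-92773904, minus strand) had 1.24 and 0.912 CPM against 17.6, 1.09 and 3.57 CPM. For Elk3 the groups overlapped, because clone C6.1 lay between the mESC libraries. Without the stand-apart libraries (B9.3 of wild-type mesoderm and D2.1 of P2-CTCF-KO HPCs), 4 members were called. Ets2 then differed by 0.96 log2 units, below the limit of 1, and Elk3 by 1.31 (adjusted p = 0.13 by edgeR), while Fli1 (8.97), Erg (5.54), Ets1 (2.90) and Etv6 (1.27) were still called.

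Etv6 (chr6:133985717-134220165, plus strand) was already transcribed in mESCs, at 6.67 and 5.97 CPM, and reached 29.8, 11.1 and 16.8 CPM in mesoderm (log2 difference 1.70 ± 0.44, adjusted p = 0.016 by edgeR). Gabpa (chr16:84835368-84864023, plus strand) was at 6.39 and 5.63 CPM in mESCs and at 4.17, 3.75 and 3.08 CPM in mesoderm. These groups did not overlap, yet the log2 difference of -0.63 was not called (adjusted p = 0.079 by edgeR). Elf1 (chr14:79881000-79982298, plus strand) had 2.37 and 1.88 CPM in mESCs and 2.27, 2.3 and 1.54 CPM in mesoderm, with a log2 difference of 0.0088 ± 0.36. Spans of Elf1 and Gabpa overlap those of the antisense neighbours Wbp4 (by 76 bp) and Atp5j (by 503 bp), and whether counting used strand is not given in the sources used here. The mESC group had 2 libraries labelled as technical repeats. When their counts were summed into 1 library, 3 members were called (Fli1, Erg and Ets1), and without 1 or the other of them 2 or 3 were.

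Etv2 (chr7:31418634-31420871, minus strand), whose span of 2238 bp is the shortest of the 10, had too few reads for the test. There were 4 reads in 1 mESC library and 0 in the other. In mesoderm, wild-type cells of B9.3, C6.1 and C8.1 had 0.477, 0.242 and 0.123 CPM, P1-CTCF-KO clones E7.1, E7.2 and E9.1 had 0.479, 0.043 and 0.674 CPM, and P2-CTCF-KO clones D10.1, D2.1 and E9.1 had 0.282, 0.388 and 0.0753 CPM. Thus reads of Etv2 were found in each of the 9 mesoderm libraries, from 1 to 10 reads per library. In HPCs the 4 wild-type and the 3 P1-CTCF-KO libraries had 0 reads, and 1 of 5 P2-CTCF-KO libraries (D2.1) had 1 read. In wild-type cells the mean level was 0.281 ± 0.18 CPM (SD, n = 3) in mesoderm against 0 (n = 4) in HPCs. The exact permutation test over libraries gave a two-sided p = 0.0286, the smallest it can give. In P2-CTCF-KO cells the mean level was 0.249 ± 0.159 against 0.014 ± 0.0313 CPM (exact permutation p = 0.0179, again the smallest). With 3 against 3 P1-CTCF-KO libraries the exact permutation test cannot go below p = 0.1, which it gave. In the other genotypes, here and for Spi1, second HPC libraries of a clone (wild-type B9.3, P2-CTCF-KO D10.1 and D2.1) counted as separate replicates. With 3 clones per stage the exact permutation test could not go below p = 0.1 there either. Lower Etv2 in HPCs was thus not established over clones. A count of 0 allows up to 3 reads, or 0.289 CPM in wild-type HPC libraries on average, so the wild-type means do not give a fold.

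The step from Flk1+ mesoderm to CD41+ HPCs separated the members. In wild-type cells Fli1, Elf1 and Spi1 rose and Ets1 fell. That is 3 of 9 tested members called higher where 10.8% of 12899 genes were, and 1 of 9 called lower where 12.5% were. Of these 3 higher members, Spi1 passed the filter on low counts only through its HPC reads. DESeq2 called the same 4, where it called 10.4% of genes higher and 13.3% lower. Without mesoderm C8.1, HPC library C6.1 or HPC library C8.1 the number of calls was 2, 2 and 1. The median log2 difference was 0.089 over the members and -0.0078 over all genes.

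Elf1 gave the clearest rise. It had 2.27, 2.3 and 1.54 CPM in the wild-type mesoderm clones and 16.9, 9.12, 15.1 and 24.3 CPM in HPC libraries B9.3, B9.3-2, C6.1 and C8.1. The lowest HPC library was well above the highest mesoderm library (log2 difference 3.07 ± 0.33, adjusted p = 5.9e-05 by edgeR), and it was called under each alternative run, with log2 values of 3.02 to 3.18 (2.84 to 3.26 with 1 library left out at a time). P1-CTCF-KO cells went from 1.01 to 1.74 CPM up to 17.8 to 27.8 CPM (log2 4.14 ± 0.47, adjusted p = 4.7e-06 by edgeR). In P2-CTCF-KO cells it went from 2.05 to 2.33 CPM up to 4.66 to 24.1 CPM (log2 2.51 ± 0.42, adjusted p = 0.00017 by edgeR).

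Fli1 reached 57.1, 31, 39.3 and 88.2 CPM in the wild-type HPC libraries B9.3, B9.3-2, C6.1 and C8.1. Mesoderm of B9.3, at 32.5 CPM, lay just above the lowest HPC library with the scaling over 23 libraries. In the scaling of the wild-type fit the groups did not overlap. The log2 difference was 1.76 ± 0.58 (adjusted p = 0.041 by edgeR), and over the alternatives the adjusted p ran from 0.00033 to 0.071, the highest with the clone as a block. Leaving out 1 library at a time gave 1.29 to 2.71, and the call was lost without either mESC library, without mesoderm C6.1 or C8.1 and without HPC library C6.1 or C8.1. Without the stand-apart libraries it was 2.71 (adjusted p = 0.0025 by edgeR). Fli1 rose in P1-CTCF-KO cells as well, from 23.1, 5.38 and 24.5 CPM to 93.4, 54 and 73.6 CPM (log2 2.14 ± 0.76, adjusted p = 0.03 by edgeR), a call lost without mesoderm E7.1 or E7.2 and without HPC library E7.1 or E9.1.

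Spi1 (chr2:90936834-90955916, plus strand), whose upstream peak was listed in HPCs and not in mesoderm, remained low. It had 0, 0.121 and 0 CPM in wild-type mesoderm and 0.258, 0.729, 0.467 and 1.01 CPM in wild-type HPCs, which is 3 to 12 reads per HPC library against a total of 1 read in mesoderm. The log2 difference was 4.53 ± 1.16 (adjusted p = 0.013 by edgeR), while the exact permutation test of the CPM values gave p = 0.0571, where 0.0286 is the smallest possible. Spi1 passed the filter on low counts only through HPC libraries, the group where it was high. The edgeR call is therefore no independent support for the rise. The edgeR call was lost without mesoderm C8.1 (adjusted p = 0.058). In P1-CTCF-KO cells 0, 0.043 and 0.135 CPM were followed by 0.584, 1.49 and 0.497 CPM (exact permutation p = 0.1, the smallest possible). P2-CTCF-KO mesoderm had 0 reads of Spi1 in 3 libraries, and the 5 HPC libraries had 0 to 0.579 CPM (exact permutation p = 0.107).

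Ets1 moved the other way. It fell from 15.4, 6.18 and 5.23 CPM to 3.96, 4.5, 2.15 and 3.88 CPM in wild-type cells (log2 difference -1.27 ± 0.38, adjusted p = 0.026 by edgeR). Without the stand-apart libraries the difference was -0.61 (adjusted p = 0.16 by edgeR), and the call was also lost without HPC library C6.1 or C8.1, with the clone as a replicate block (adjusted p = 0.095 by edgeR) and with all 23 libraries in 1 fit (adjusted p = 0.13 by edgeR). Erg and Elk3 were not called. Erg went from 8.59, 0.242 and 1.79 CPM to 0.689, 1.46, 0.187 and 0.506 CPM (log2 -2.39 ± 0.86, adjusted p = 0.06 by edgeR), and Elk3 from 17.6, 1.09 and 3.57 CPM to 1.72, 2.67, 0.467 and 3.29 CPM (log2 -1.86 ± 0.73, adjusted p = 0.081 by edgeR). Without the stand-apart libraries Erg differed by -0.73 (adjusted p = 0.52) and Elk3 by -0.26 (adjusted p = 0.79), both by edgeR. Etv6 in wild-type HPCs, at 17.9 to 51.6 CPM, overlapped mesoderm (log2 0.84 ± 0.36, adjusted p = 0.11 by edgeR), and it was called at 1.29 without those libraries (adjusted p = 0.018 by edgeR), as was Ets2 at 1.07 (adjusted p = 0.011 by edgeR). Gabpa differed by 0.089 ± 0.23 log2 units, with 3.18 to 4.74 CPM in HPCs.

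**Figure D3:**
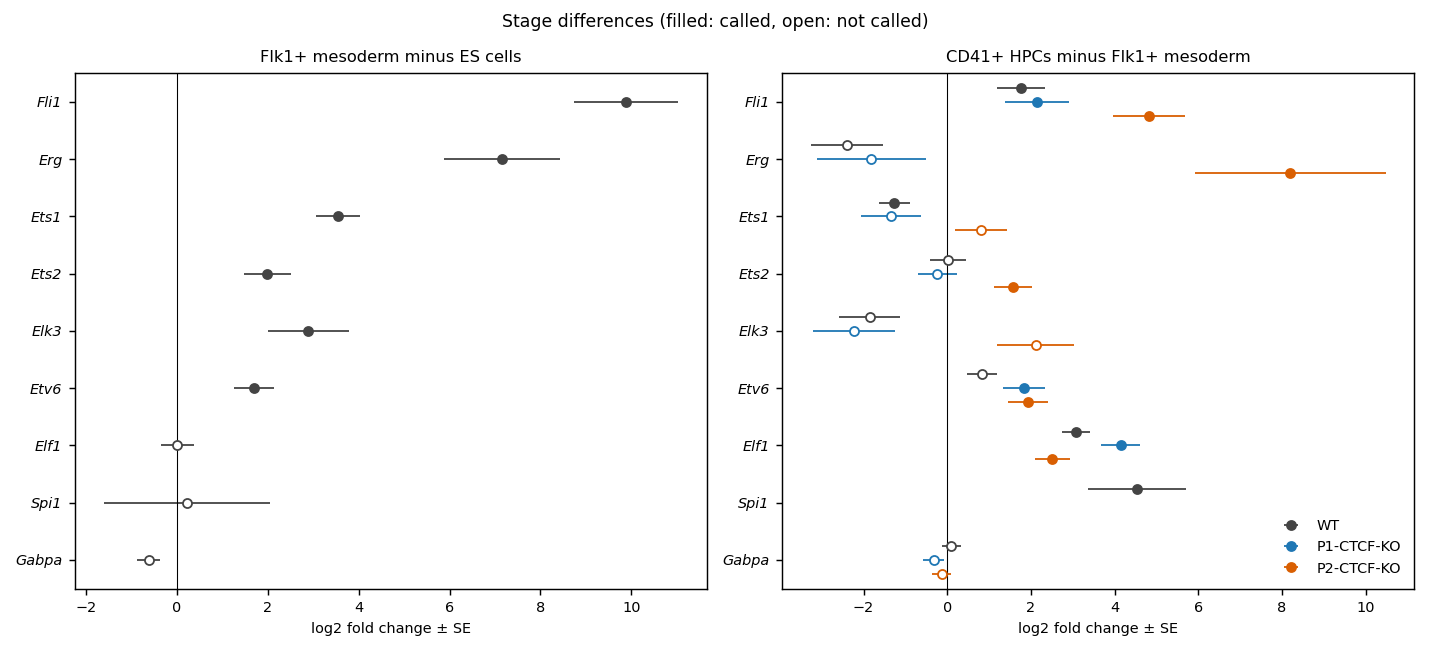
Log2 fold change with its standard error (x axis) of each tested ETS gene (y axis) between stages, in wild-type cells (grey) and in the P1 (blue) and P2 (orange) knockouts of the CTCF site. Filled points passed an adjusted p of 0.05 and 1 log2 unit. Erg lies at -2.39 in wild-type and at 8.20 in P2-CTCF-KO cells, the latter against a mesoderm group at 0 reads.

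Partner factors and targets of the ETS genes were followed over the same steps, with calls by edgeR. Over all tested genes 10.7% rose from mESCs to wild-type mesoderm, and 10.8% rose and 12.5% fell in the step to wild-type HPCs. Of 8 blood factors that bind beside FLI1 and ERG or form complexes with them, 7 rose from mESCs to wild-type mesoderm, led by Tal1 (log2 4.47 ± 0.29), Lmo2 (4.5 ± 0.47) and Gata2 (3.46 ± 0.42). In the step to wild-type HPCs 5 rose, among them Gata1 (6.15 ± 0.49), Tal1 (1.94 ± 0.21) and Runx1 (3.19 ± 0.43), and Cbfb, the partner subunit of Runx1, fell (-1.26 ± 0.25). Gata2 differed by -0.53 ± 0.35 and was not called. Of the 21 endothelial genes, 18 were tested and 13 rose in wild-type mesoderm, led by Kdr (8.05 ± 0.69), which encodes the sorting marker Flk1, Sox7 (7.12 ± 0.84) and Cdh5 (10.6 ± 1.88). In wild-type HPCs 8 of the 18 fell, including Sox7 (-9.59 ± 1.35), Kdr (-2.04 ± 0.39) and Nos3, the endothelial nitric oxide synthase (-4.83 ± 1.22), and Vwf, a product of both endothelium and megakaryocytes, rose (5.51 ± 0.85). These endothelial calls include mesoderm B9.3 and were not repeated without it. The summed level of the 21 genes was 40.3 to 109 CPM in wild-type HPCs. In wild-type mesoderm it was 36.8, 42.1 and 196 CPM, the last in B9.3. Of 14 myeloid genes bound by PU.1, 5 were tested and 3 rose in wild-type HPCs: Itgb2 (10.5 ± 1), Laptm5 (3.27 ± 0.57) and Coro1a (5.06 ± 0.93), whose products also occur in other blood cells. Summed, the 14 genes held 6.54 to 14.6 CPM in wild-type HPCs, with 2 to 6 of them at 0 reads.

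Other ETS family genes gave a mixed picture. Of 16 such genes, 10 were tested, and from mESCs to mesoderm Elf4 (2.70 ± 0.55) and Elf2 (1.23 ± 0.29) rose while Etv5 (-2.47 ± 0.37) and Elf3 (-3.42 ± 0.83) fell. That is 2 of 10 higher by edgeR, where 10.7% of all genes were, and 2 of 10 lower, where 13.7% were. DESeq2 called the same 2 higher, and of the lower ones it called Etv5 and not Elf3. In the step to HPCs Elk4 (1.2 ± 0.29) and Elf4 (1.32 ± 0.44) rose, 2 of 10 where 10.8% of all genes did. In that step 4 of 10 fell, where 12.5% did, led by Etv1 (-9.11 ± 0.81), Etv5 (-3.76 ± 0.47) and Erf (-2.55 ± 0.47). Etv4 (-7.57 ± 1.38) was the other that fell, and it did not pass the filter for this step in the knockouts. Elk4, Elf4, Etv1, Etv5 and Erf were called in the same direction in both knockouts, with 8 of the 16 tested. Over all genes 16.6% were called higher and 16.1% lower in P1-CTCF-KO cells, and 16.5% and 11.7% in P2-CTCF-KO cells.

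Fli1, Erg, Ets1, Ets2, Etv6 and Elk3 had lower group means in P2-CTCF-KO mesoderm than in the mesoderm of the other genotypes, and edgeR called none of these differences. No read of Erg was found in the 3 P2-CTCF-KO libraries, against 11 to 144 reads in 5 of the 6 other mesoderm libraries and 2 reads in wild-type clone C6.1. Fli1 was at 0.141, 1.55 and 2.41 CPM in clones D10.1, D2.1 and E9.1, where wild-type clones had 32.5, 3.15 and 13.4 CPM and P1-CTCF-KO clones 23.1, 5.38 and 24.5 CPM. Etv6 was at 9.46, 6.69 and 7.83 CPM against 29.8, 11.1 and 16.8 CPM, Ets2 at 0.918, 1.94 and 1.2 CPM against 8.05, 1.94 and 1.97 CPM, and Ets1 at 2.96, 4.75 and 3.91 CPM against 15.4, 6.18 and 5.23 CPM. For Fli1, Erg, Ets1 and Etv6 the highest P2-CTCF-KO library lay below the lowest wild-type library, as it did for 888 of the 8778 genes tested in mesoderm. With the scaling over 23 libraries, the highest and the lowest for Ets2 read 1.94 CPM alike. Elk3, at 1.06, 0.873 and 1.2 CPM, overlapped wild-type C6.1 (1.09 CPM).

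None of these differences was called by edgeR with the filter on low counts. Relative to wild type the log2 difference was -3.59 ± 0.93 for Fli1 (adjusted p = 0.14), -2.83 ± 0.93 for Elk3 (adjusted p = 0.19) and -1.25 ± 0.34 for Etv6 (adjusted p = 0.15), and the fitted value for Erg of -8.79 had an adjusted p of 0.15 (all by edgeR). Against a floor of 3 reads per library Erg was at least 14.3-fold lower than in wild-type mesoderm, and at least 11.3-fold lower than in P1-CTCF-KO mesoderm. The first bound rested on clone B9.3 and was 4.1-fold without the stand-apart libraries, where the 2 reads of clone C6.1 lie under the floor, and the second was again 11.3-fold. At an unadjusted p under 0.05, 6 of the 8 members were lower (Fli1, Erg, Ets1, Ets2, Etv6 and Elk3), compared with 9.76% of 8778 genes, while edgeR called 0.0342% of all genes lower. DESeq2 called 2 members lower, Erg (adjusted p = 0.0068) and Etv6 (adjusted p = 0.041), where it called 1.66% of genes lower. Here and in later comparisons with P2-CTCF-KO mesoderm, Erg passed the filter on low counts only through other groups, where it was higher. The calls of Erg there are therefore no independent support for a difference. The median log2 difference of the 8 members was -1.43, also with Erg at its bound, against 0.0089 over all genes. Without wild-type clone B9.3 and P2-CTCF-KO HPC library D2.1 the edgeR values shrank to -2.66 for Fli1, -1.23 for Elk3 and -0.80 for Etv6. Both Ets1 and Ets2 were then at -0.56, and the fitted value for Erg was -7.09 (adjusted p = 0.34 by edgeR). By edgeR 0 members were called, as with these libraries included. DESeq2 was not run without them, so its calls of Erg and Etv6 were not checked in this way.

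Elf1 and Gabpa overlapped wild type. Elf1 was at 2.05, 2.33 and 2.11 CPM in P2-CTCF-KO mesoderm (log2 0.11 ± 0.28 against wild type) and Gabpa at 2.61, 4.07 and 4.29 CPM (log2 0.0047 ± 0.25). The summed level of the endothelial genes was also lowest in P2-CTCF-KO mesoderm. It was 30.4, 30.6 and 35.6 CPM in P2-CTCF-KO clones, 36.8, 42.1 and 196 CPM in wild-type clones and 42.1, 79.1 and 149 CPM in P1-CTCF-KO clones, with 7 to 9 of the 21 at 0 reads in P2-CTCF-KO and 0 to 6 in the others. Kdr alone, the gate of the sort, held 24.8 to 30.3 CPM in the P2-CTCF-KO libraries and differed from wild type by -0.0046 ± 0.27 log2 units. Cdh5 was at 0.0706, 0.097 and 0.301 CPM there. Against wild type, edgeR called 0 of 15 tested endothelial genes in P2-CTCF-KO mesoderm, and DESeq2 called 7 of 14 lower (Cdh5, Esam, Flt1, Nos3, Pecam1, Sox7 and Tek). The DESeq2 run included clone B9.3 and was not repeated without it. Of 8 mesoderm genes edgeR called 0 and DESeq2 called 4 higher (Eomes, Mixl1, Pdgfra and T), and their sum was 77.2 to 115 CPM in P2-CTCF-KO, 36.3 to 62.6 CPM in wild-type and 55.3 to 57.6 CPM in P1-CTCF-KO mesoderm. The part of endothelial and mesodermal content in the ETS differences was not tested.

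**Figure D4:**
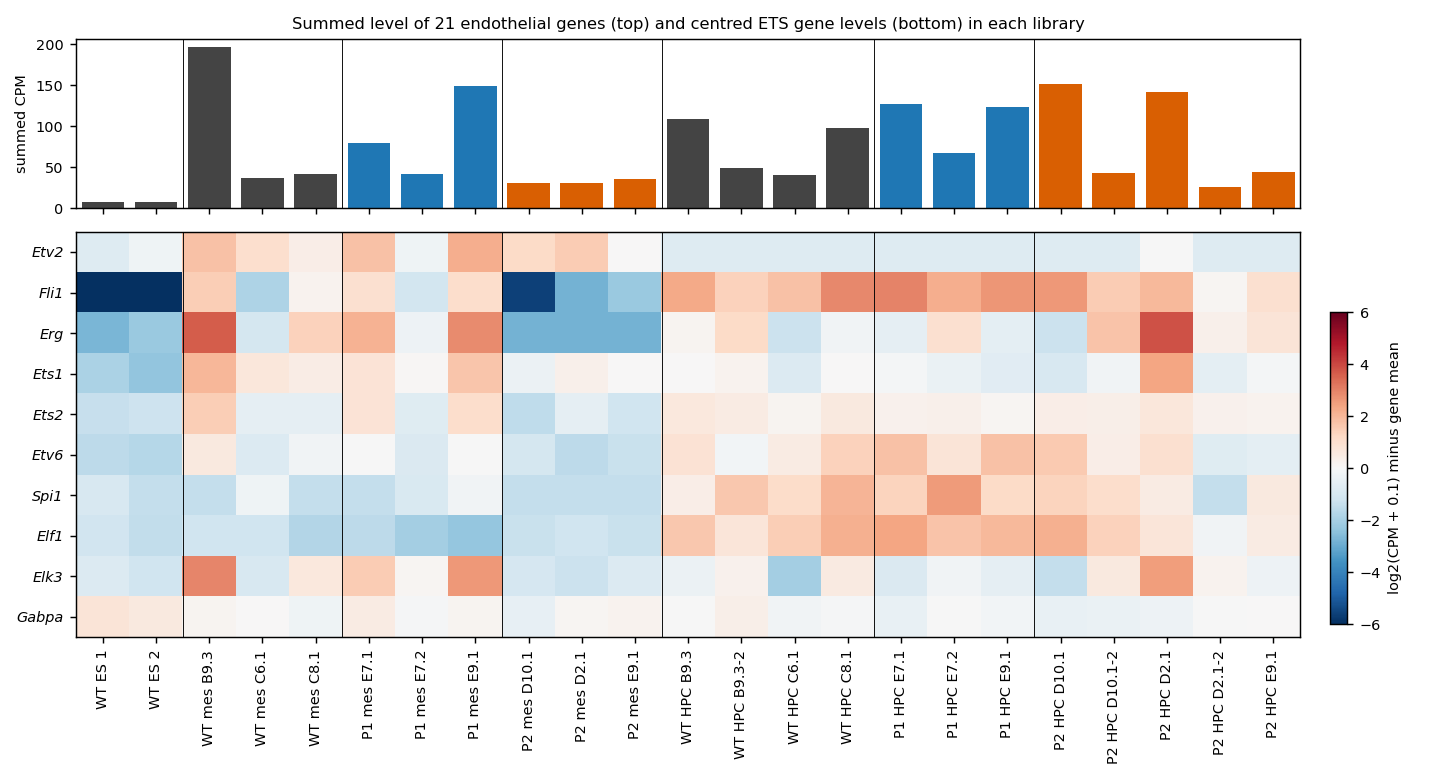
Summed CPM of 21 endothelial genes (bars, top) and log2(CPM + 0.1) of each ETS gene minus its mean over 23 libraries (colour, bottom), one column per library. Libraries with high bars in mesoderm (WT B9.3, P1 E9.1 and P1 E7.1) also have the highest Erg, Fli1, Ets1, Ets2 and Elk3 of that stage. P2 HPC D2.1 has Erg at 9.94 CPM.

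P1-CTCF-KO and wild-type mesoderm overlapped in Fli1, Erg and Elk3. No member was called (0 of 8, as were 0.0% of 8778 genes by edgeR, and 0 by DESeq2). Elf1, at an unadjusted p of 0.049, was the 1 member under 0.05, where 1.17% of genes were lower at that level, and the log2 differences ran from -0.62 ± 0.28 for Elf1 to 0.20 ± 0.24 for Gabpa. Erg read 2.93, 0.473 and 4.92 CPM and Elk3 read 6.7, 2.41 and 14.2 CPM in clones E7.1, E7.2 and E9.1. The low clone E7.2 also had the lowest endothelial sum of the 3. Directly compared, P2-CTCF-KO was below P1-CTCF-KO mesoderm without overlap for Fli1, Erg, Etv6 and Elk3, 4 of 8 members where 9.73% of genes did so. Again edgeR called 0 of 8 (Fli1 -3.68 ± 0.93, adjusted p = 0.24), with 5 members lower and Elf1 higher at an unadjusted p under 0.05, where 6.69% of genes were lower and 4.56% higher. DESeq2 called Erg (adjusted p = 0.017), where it called 0.954% of genes lower.

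**Figure D5:**
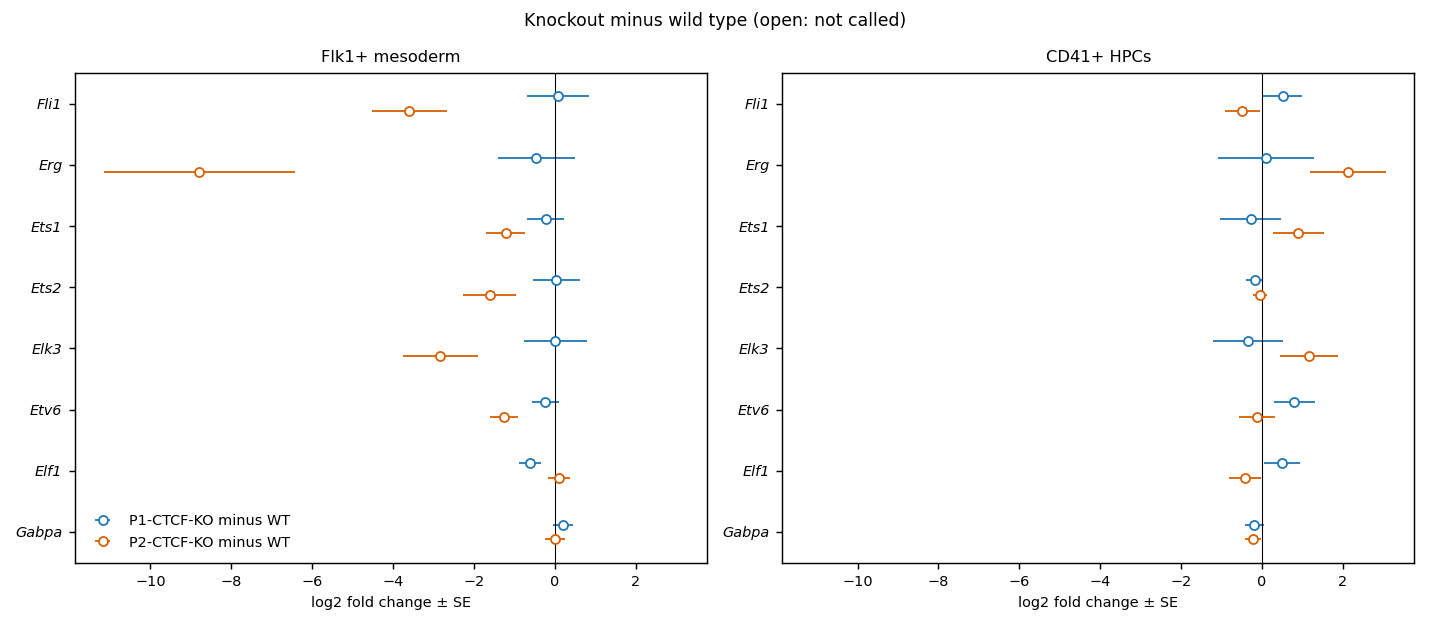
Log2 fold change with its standard error (x axis) of the P1 (blue) and P2 (orange) CTCF-site knockouts against wild-type cells, in mesoderm (left) and HPCs (right). No point passed the threshold by edgeR, while DESeq2 called Erg and Etv6 in P2-CTCF-KO mesoderm. The P2-CTCF-KO values for Fli1 and Elk3 were -3.59 and -2.83 in mesoderm and -0.49 and 1.16 in HPCs, and without the stand-apart libraries Elk3 was at -1.23 in mesoderm and 0.118 in HPCs.

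In HPCs the genotypes overlapped in Fli1, at 31 to 88.2 CPM in wild-type, 54 to 93.4 CPM in P1-CTCF-KO and 12.5 to 72.1 CPM in P2-CTCF-KO libraries. No member was called between any pair of the 3 genotypes by edgeR (0 of 8 in each pair, as were 0.0% of 7422 genes) or by DESeq2 (0 of 7, with no value for Ets1). At an unadjusted p under 0.05 there was no member between P1-CTCF-KO and wild type. Between P2-CTCF-KO and wild type it was Erg, with a log2 difference of 2.12 ± 0.94 (adjusted p = 1 by edgeR), where 1.29% of genes were higher at that level. Without library D2.1 the value for Erg was 0.68, and that for Elk3 was 0.12 in place of 1.16 ± 0.71. Between the knockouts of P2 and P1 they were Fli1 (-1 ± 0.46) and Elf1 (-0.93 ± 0.42), each with an adjusted p of 0.53 by edgeR, where 3.65% of genes were lower. Erg in P2-CTCF-KO HPCs was at 0.193, 2.23, 9.94, 0.792 and 1.1 CPM in libraries D10.1, D10.1-2, D2.1, D2.1-2 and E9.1. The second library of clone D2.1 was among the lower ones. Library D2.1 also held 20.6 CPM of Ets1 and 13 CPM of Elk3, where the other 4 had 1.93 to 3.51 and 0.773 to 3.43 CPM.

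HPC libraries also differed in blood content. In P2-CTCF-KO library D10.1, Fli1, Etv6 and Elf1 read 72.1, 59.7 and 24.1 CPM with 79 CPM of Itga2b (the CD41 gene), and in D2.1-2 they read 12.5, 11.9 and 4.66 CPM with 11.7 CPM of Itga2b. The second libraries of B9.3 and D10.1 were both lower than their counterparts in Fli1 (31 against 57.1 and 33.5 against 72.1 CPM) and in Itga2b (19.2 against 41 and 15.2 against 79 CPM). In the opposite order, the summed level of 8 erythroid genes was 155 against 67.9 CPM for B9.3 and 196 against 88.7 CPM for D10.1. Clone D2.1 was likewise lower in Fli1 in its second library (12.5 against 45.9 CPM) and higher in the erythroid sum (175 against 31.1 CPM). Its sum of 8 megakaryocyte or CD41+ progenitor genes, however, was higher in the second library (35.3 against 26 CPM). That sum was lower in the second libraries of B9.3 (47 against 74.9 CPM) and D10.1 (36.2 against 124 CPM). The part of cell content in these levels of the ETS genes was not tested.

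Between mesoderm and HPCs, 5 members were called in P2-CTCF-KO cells and 3 in P1-CTCF-KO cells, and the difference in number was not tested. In P2-CTCF-KO cells Fli1, Erg, Ets2, Etv6 and Elf1 rose, 5 of 8 tested members where 16.5% of 9170 genes were called higher, and 0 members were called lower, where 11.7% were, or lower at an unadjusted p under 0.05, where 20.3% were. DESeq2 added Elk3 (adjusted p = 0.043) to these 5, where it called 15.9% of genes higher. By edgeR the Elk3 value was 2.11 ± 0.92, and 1.01 without the stand-apart libraries (adjusted p = 0.22). P1-CTCF-KO cells had 3 calls, Fli1, Etv6 and Elf1, where 16.6% of genes were called higher. Of their members 0 were called lower, where 16.1% of genes were, Elk3 was lower at an unadjusted p of 0.035, where 24.3% of genes were under 0.05, and DESeq2 called it (adjusted p = 0.041), where it called 16.2% of genes lower. P1-CTCF-KO cells had 6 calls without the stand-apart libraries, Ets1 (-1.34) and Elk3 (-2.21) among them. Fli1 differed by 4.82 ± 0.86 in P2-CTCF-KO cells (adjusted p = 0.00029 by edgeR), from 0.141 to 2.41 CPM up to 12.5 to 72.1 CPM. Erg rose at least 12.2-fold against the floor, or 4.39-fold without the stand-apart libraries, and 6.69 was its fitted log2 value without the stand-apart libraries (adjusted p = 0.0082 by edgeR). Ets2 rose by 1.57 ± 0.46, a call lost without mesoderm D10.1 (adjusted p = 0.063 by edgeR), and Etv6 by 1.94 ± 0.48.

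Whether the P2-CTCF-KO difference itself changed between stages was tested as an interaction. No member was called (0 of 8 by edgeR, where 0.0218% of 9170 genes were called higher), and 5 of 8 had an unadjusted p under 0.05, where 5.82% of genes did, all with a more positive difference in HPCs: Fli1 (log2 3.09 ± 1.02, adjusted p = 0.41), Erg (adjusted p = 0.28), Ets1 (2.1 ± 0.89, adjusted p = 0.61), Ets2 (1.56 ± 0.62, adjusted p = 0.54) and Elk3 (3.98 ± 1.24, adjusted p = 0.37). DESeq2 called Erg (adjusted p = 0.00081), where 0.393% of genes were called higher. With both stand-apart libraries left out, the interaction was 2.02 for Fli1, 0.22 for Ets1, 0.40 for Ets2 and 1.28 for Elk3, and the fitted value for Erg was 7.40 (adjusted p = 0.91 to 1 by edgeR). For P1-CTCF-KO the interaction gave 0 members called (0.0% of genes) under either tool, and 0 at an unadjusted p under 0.05. The wild-type and knockout steps were thus not shown to differ by edgeR, and these interactions share the wild-type libraries.

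The genes whose group means over the 7 groups ran closest to each of 4 members were ranked by the root mean square difference of centred log2(CPM + 0.1) among 12543 genes. Erg was nearest to Cdh5 (0.455), Igf1 (0.598) and Calcrl (0.61), of which Cdh5 and Calcrl are endothelial membrane proteins. Fli1 was nearest to Ptpre (0.914), Cbfa2t3 (0.987) and Gab2 (1.11), and Cbfa2t3 encodes a corepressor found in Tal1 complexes. Spi1 was nearest to Bcr (0.135), Srgn (0.173) and Cuedc1 (0.174), and Etv2 to Zc3hav1l (0.111), Tbc1d4 (0.13) and Bcl9l (0.146). Levels of Spi1 and Etv2 were close to the offset of 0.1 CPM in most groups, which flattens their pattern and makes these distances small.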

How the data were processed

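Poly(A)-minus RNA was sequenced from sorted or undifferentiated mouse cells. The deposited table holds raw counts, which the authors made with STAR alignments to mm9, freed of duplicate reads, and featureCounts over exons plus introns. The authors' peak lists (mm9 positions) came from MACS2 on merged ATAC-seq libraries and from CTCF ChIP-seq of 416B cells, and the other deposited columns are positions and lengths. The strand setting of counting is not given in the sources used here. Counts were tested with edgeR 4.0.16 (R 4.3.3, TMM, filterByExpr with a minimum count of 10, Benjamini-Hochberg adjustment) in 4 fits: 9 wild-type, 9 mesoderm, 12 HPC, and 21 mesoderm and HPC libraries. DESeq2 1.42.0 was an alternative. A gene was called at adjusted p under 0.05 and over 1 log2 unit. All entries stayed in the fits, and the 187 ribosomal or multi-locus entries were left out as an alternative. The pipeline was tested on simulated data. Libraries of 1 group differed by 6.22 to 135 chi-square units per gene, so none was a repeat deposit. Clones of 1 group were counted as replicates, and some clones have 2 libraries.

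The named genes were the 10 members, then for each list and comparison the 3 called genes with the smallest adjusted p in each direction. For likeness the 3 nearest genes were named. Members and lists were chosen with earlier results of these data known. The 416B RNA and chromatin conformation libraries were not analysed here.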

Additional observations from a re-analysis of the deposited data

Results flagged for a closer look

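In 19 groups of 4 or 5 HPC libraries the highest or lowest value was compared with the others, and 4 values stood far from the rest. Chance flags about 1 in 20 groups, but these 4 flags share 1 library and are not independent. Their number can therefore not be set against chance. With the other libraries at 0, any single read of Etv2 is flagged. All 4 came from P2-CTCF-KO library D2.1: Etv2 at 0.07 CPM (1 read) where the other libraries had 0, Erg at 9.94 CPM with the next library at 2.23, Ets1 at 20.6 CPM with the next at 3.51, and Elk3 at 13 CPM with the next at 3.43. In the same library the 21 endothelial genes summed to 142 CPM and the 8 mesoderm genes to 20.5 CPM, where the other P2-CTCF-KO HPC libraries had 26.2 to 151 and 3.76 to 10.6 CPM.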

How the results depend on the processing

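Of the values with an alternative other than a left-out library, 161 levels or counts kept within the limit and 16 moved, while 644 member values kept their direction and call, 23 gained a call, 11 lost one and 24 changed sign. Summing the mESC libraries left 3 of 6 calls in mesoderm against mESCs. In wild-type HPCs against mesoderm the 4 calls became 7 without the filter on low counts, 2 with all 23 libraries in 1 fit and 1 with the clone as a replicate block. The P2-CTCF-KO mesoderm comparison with wild type went from 0 calls to 2 with DESeq2 and 6 without the filter, and that with P1-CTCF-KO to 1 and 5. P1-CTCF-KO HPCs against mesoderm went from 3 to 5 without the filter and 6 without the stand-apart libraries. DESeq2 called 1 member in the P2-CTCF-KO interaction. The cause was not tested. Leaving out 1 library at a time gave 2 to 6 calls in wild-type mesoderm against mESCs, 1 to 5 in wild-type HPCs against mesoderm, 0 to 1 in P2-CTCF-KO against wild-type mesoderm (1 without clone C6.1, Fli1 at -4.39, adjusted p = 0.044 by edgeR) and 3 to 5 in P1-CTCF-KO HPCs against mesoderm (5 without B9.3 mesoderm or D2.1 HPCs). Peaks wider than the list median numbered 35 in mesoderm and 21 in HPCs, and a window of 50 kb held 103 and 59, of which 36 mesoderm peaks were shared. By their labels the same clones were sampled in mesoderm and HPCs, so the clone links the stages. The deviations of a clone at both stages correlated by -0.066 to 0.17 over 9170 genes, and only wild-type C6.1 was over 0.1. The main fits did not use the clone as a block, and such low correlations do not show that the stages are unpaired. Depth limits Etv2 and Spi1, which had at most 10 and 14 reads per library.

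Sign changes touched values near 0 or the stand-apart libraries, with adjusted p of 0.31 or more (edgeR or DESeq2). The alternative without the stand-apart libraries was chosen after seeing the data. Elf1 in mesoderm against mESCs was -0.109 without the filter, -0.038 with summed mESC libraries and -0.074 without the stand-apart libraries. Ets2 in wild-type HPCs against mesoderm was -0.0159 with DESeq2, -0.0364 with RLE factors, -0.00118 without the filter and -0.00432 with the libraries of a clone summed. In P1-CTCF-KO against wild-type mesoderm, Erg (1.22), Ets1 (0.431) and Etv6 (0.213) turned without the stand-apart libraries, and Elk3 was -0.0118 with RLE factors and -0.00574 without the filter. Gabpa in P2-CTCF-KO against wild-type mesoderm was -0.0106 without the filter and -0.0178 with 23 libraries, and between the knockouts in HPCs 0.00975 without the filter. Without the stand-apart libraries Ets1 was -0.313 in P2-CTCF-KO HPCs against wild type, -0.0328 against P1-CTCF-KO and -0.445 against mesoderm. In the P1-CTCF-KO interaction Fli1 (-0.537) and Erg (-1.09) turned without those libraries, and Ets1 was 0.00394 with DESeq2, 0.0068 with RLE factors, 0.0332 with clones summed and 0.119 with the block.

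Without 1 mESC library the lone one is assumed to vary like the other groups. With 1 library left out at a time, log2 values crossed 0 for members that were not called. In wild-type mesoderm against mESCs these were Spi1 (-3.05 to 2.49) and Elf1 (-0.147 to 0.218). In wild-type HPCs against mesoderm these were Ets2 (-0.325 to 1.07) and Gabpa (-0.0465 to 0.194). In P1-CTCF-KO against wild-type mesoderm these were Fli1 (-0.386 to 1.02), Erg (-1.22 to 1.22), Ets1 (-0.774 to 0.431), Ets2 (-0.352 to 1.09), Etv6 (-0.496 to 0.213) and Elk3 (-0.815 to 1.6). In P2-CTCF-KO against wild-type mesoderm these were Elf1 (-0.0843 to 0.211) and Gabpa (-0.139 to 0.199). In P1-CTCF-KO against wild-type HPCs it was Erg (-0.785 to 0.675). In P2-CTCF-KO against wild-type HPCs these were Ets1 (-0.313 to 1.14), Ets2 (-0.133 to 0.00249) and Etv6 (-0.509 to 0.106). Between the knockouts in HPCs these were Ets1 (-0.0328 to 1.41) and Gabpa (-0.11 to 0.0589). In P1-CTCF-KO HPCs against mesoderm it was Ets2 (-0.645 to 0.157). In P2-CTCF-KO HPCs against mesoderm these were Ets1 (-0.355 to 1.05) and Gabpa (-0.332 to 0.000269). In the P1-CTCF-KO interaction these were Fli1 (-0.553 to 0.874), Erg (-1.13 to 1.28), Ets1 (-0.714 to 0.454), Ets2 (-1.28 to 0.112) and Elk3 (-1.98 to 0.419).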
